A study of Neurospora crassa with 24 samples.

Results

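The transition from light to darkness was examined in 6 of the 24 RNA-seq libraries of the filamentous fungus *Neurospora crassa*: the cultures harvested when the lights went off (0 h, 1 WT and 1 ΔMSN1 culture) and those harvested after 2 h and 4 h of darkness (1 culture per strain and time, 4 in all). The comparison was therefore 2 cultures against 4, with the strain kept as a block. WT is the wild-type strain FGSC 2489 and ΔMSN1 is strain FGSC 11345, which lacks *msn-1*, a gene for a stress-response transcription factor. All cultures grew in liquid Vogel's medium with glucose, arginine and biotin, germinated for 6 h in light, passed 2 days of 11 h light and 11 h dark, and were then kept in the dark. Their transfer was staggered, so that harvest of the whole series took 10 h. Hours of darkness and hour of harvest are thus not the same scale, and the labels give no harvest hour. From 0 h to 2 and 4 h, light and circadian time changed together, so their parts in a change cannot be told apart.

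Each strain and time is a single culture, so the spread between cultures is estimated only across times and strains, and p-values measure that spread. A sequencing lane is named in the labels of ΔMSN1 alone, and strain and lane cannot be told apart. The level of *msn-1* was 32.4, 27 and 34.3 CPM (the value per 1000000 of the library total) in WT at 0, 2 and 4 h and 0 in the 3 ΔMSN1 libraries. The strains differed in 1 further marker: *matA-1*, a gene of the A mating type, was above 0 in 12 of 12 WT libraries and in 0 of 12 ΔMSN1 libraries. Library totals of the 6 cultures lay between 3450552 and 8001744 estimated counts, 9730 genes were listed, and 7209 with a mean of at least 2 CPM were tested. The 2 h and 4 h libraries of ΔMSN1 stood apart in 1 respect, a trend with gene length of opposite sign (log2 of long over short genes −0.34 and 0.31, against −0.03 to 0.03 in the other libraries). Its part in the results was not tested, but counts without each library and with the trend removed are given.

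*Neurospora* senses blue light through the white collar complex, WC-1 and WC-2, in which WC-1 is both photoreceptor and transcription factor. On illumination the complex switches on genes for photoreceptors, for the orange carotenoids, for DNA repair by light and for regulators of spore formation, and the small photoreceptor VVD then damps the complex. The same complex drives *frq* in the circadian clock, whose protein FRQ feeds back on it.

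Darkness was followed by a fall of a small set of genes. At 2 to 4 h, 35 genes were lower than at 0 h and 2 were higher (edgeR adjusted p < 0.05), which is 0.486% and 0.0277% of the genes tested. The falls ran from 1.78-fold to 51.7-fold with a median of 3.02-fold: 14 genes fell more than 4-fold, 18 between 2-fold and 4-fold and 3 by less than 2-fold. In all 35 genes both 0 h libraries lay above all 4 dark libraries, which 2.26% of all tested genes showed. This largely restates how the 35 genes were chosen. The median change of all tested genes was 0.02 on the log2 scale.

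The 2 libraries of 0 h carry the count. Without the WT culture at 0 h 17 genes were lower, and without the ΔMSN1 culture 20. In both cases 1 culture stood against 4, and the lone 0 h culture was assumed to vary like the others.

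**Figure D1:**
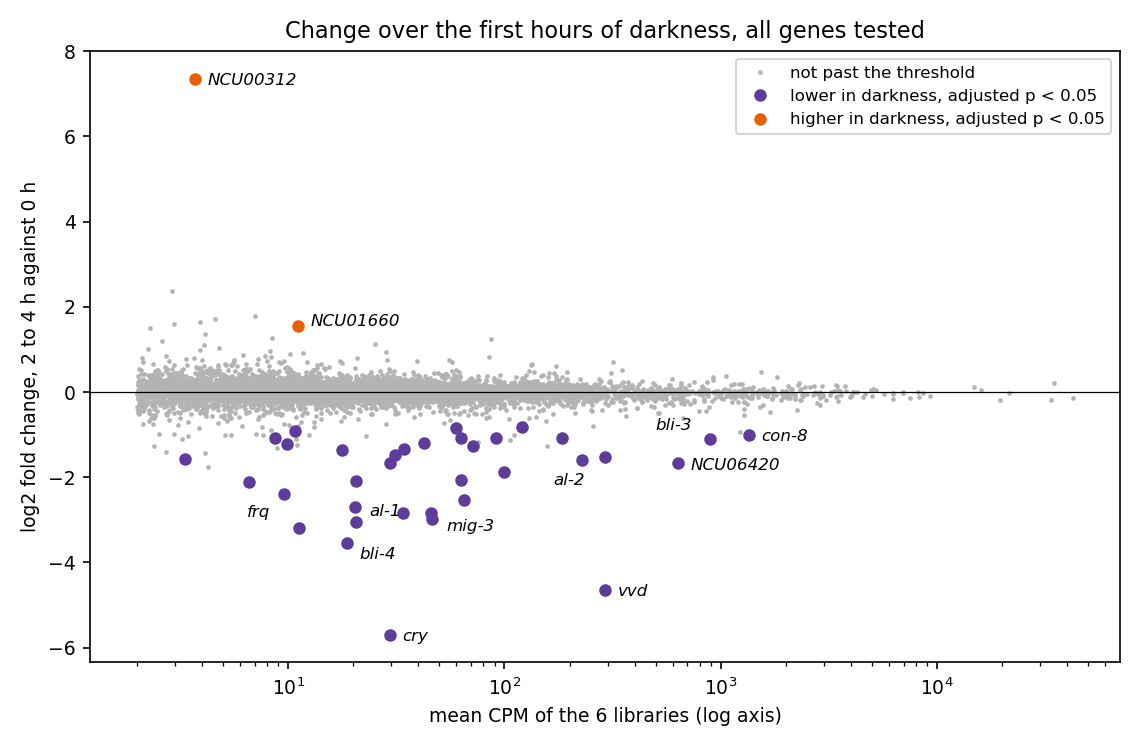
Mean CPM of the 6 libraries (log axis) against the log2 fold change from 0 h to 2 to 4 h of darkness, 1 point for each of the 7209 genes tested. The 35 genes that fell (purple) lie between −0.83 and −5.69, and the 2 that rose (orange) are *NCU01660* and *NCU00312*, whose fitted position is no measure of its size because it was listed at 0 in both 0 h libraries.

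Among the photoreceptors the largest fall was that of *cry*, which encodes a cryptochrome, a flavoprotein that binds blue light. It was at 84.1 CPM in the WT culture and 85.6 CPM in the ΔMSN1 culture at 0 h, at 1.93 and 1.28 CPM in WT after 2 and 4 h, and at 1.46 and 2.19 CPM in ΔMSN1. Both strains thus started at nearly the same level and every dark culture lay far below. The change was 51.7-fold (log2 −5.69 ± 0.20 SE, edgeR adjusted p = 1.2e-08).

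*vvd*, the gene of VIVID, the photoreceptor that mediates adaptation to light, went from 902 CPM to 35.7 and 29.7 CPM in WT and from 722 CPM to 27.5 and 41.1 CPM in ΔMSN1. The dark cultures overlapped between strains and times, and none came near the 0 h levels. The fall was 25-fold (log2 −4.65 ± 0.17 SE, edgeR adjusted p = 1.5e-08).

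*frq*, the negative element of the clock, was at 17.7 CPM in the WT culture and 23.9 CPM in the ΔMSN1 culture at 0 h. It was at 3.57 and 3.91 CPM in WT and at 4.05 and 4.56 CPM in ΔMSN1 in the dark. All 4 dark cultures were within 1 CPM of each other, below both light cultures, and the fall was 5.25-fold (log2 −2.39 ± 0.18 SE, edgeR adjusted p = 1e-05).

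No change was called in the partners of *frq*. For *wc-1* the level was 7.65 CPM in the WT culture and 7.91 CPM in the ΔMSN1 culture at 0 h, 5.43 and 5.26 CPM in WT and 3.97 and 8.02 CPM in ΔMSN1 in the dark. ΔMSN1 at 4 h was as high as the light cultures, so the groups overlapped (log2 −0.50 ± 0.23 SE, edgeR adjusted p = 1). At 2 h *wc-1* was below 0 h in both strains, but this was not called (log2 −0.74 ± 0.28 SE, edgeR adjusted p = 0.73). *wc-2* (log2 0.08 ± 0.19 SE), *frh*, which encodes the RNA helicase bound to FRQ (−0.01 ± 0.23 SE), and *nop-1*, which encodes an opsin (0.04 ± 0.16 SE), were each at an edgeR adjusted p of 1. The phytochrome genes *phy-1* and *phy-2*, with means of 1.25 and 0.25 CPM, were below the filter and not tested. Of the 9 clock and photoreceptor genes, 7 were tested, 3 fell (42.9%, against 0.486% of all genes) and 0 rose. Their median log2 change was −0.50 against 0.02 for all genes.

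Carotenoid synthesis did not move as one block. *al-1*, the phytoene desaturase, was at 55.3 CPM in the WT culture and 43.8 CPM in the ΔMSN1 culture at 0 h, and at 9.18 and 7.27 CPM in WT and 3.35 and 5.21 CPM in ΔMSN1 in the dark. Every dark culture was below every light culture, with ΔMSN1 below WT at each time, and the fall was 8.28-fold (log2 −3.05 ± 0.19 SE, edgeR adjusted p = 1.7e-06).

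*al-2* encodes the enzyme that is both phytoene synthase and lycopene cyclase. It went from 393 to 142 and 127 CPM in WT and from 425 to 140 and 149 CPM in ΔMSN1. The strains were close at each time, and the fall was 3.02-fold (log2 −1.59 ± 0.14 SE, edgeR adjusted p = 5.1e-05). *cao-2*, the torulene-cleaving oxygenase of a later step, went from 27.6 to 11.9 and 10.5 CPM in WT and from 31.6 to 10.1 and 14.8 CPM in ΔMSN1, a 2.58-fold fall (log2 −1.37 ± 0.16 SE, edgeR adjusted p = 0.00071).

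The genes at both ends of the pathway differed from these. *al-3*, which encodes geranylgeranyl diphosphate synthase, was at 18.4, 16.9 and 16.3 CPM in WT and 15.9, 14.1 and 20.6 CPM in ΔMSN1 at 0, 2 and 4 h, with overlapping groups (log2 −0.08 ± 0.17 SE, edgeR adjusted p = 1). *ylo-1*, the aldehyde dehydrogenase that finishes neurosporaxanthin, stayed between 137 and 160 CPM in the 6 libraries (log2 −0.09 ± 0.15 SE, edgeR adjusted p = 1). Of the 5 carotenoid genes, 3 fell (60%, against 0.486% of all genes) and 0 rose, with a median log2 change of −1.37.

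The list of 15 light-responsive genes was chosen with earlier results of these data known. It shares members with the clock, carotenoid and conidiation lists, so its count is not independent of theirs. The list gave 9 falls (60%, against 0.486% of all genes) and 0 rises (median log2 −1.10). The blue-light-inducible genes *bli-4* and *bli-3* fell by different amounts. *bli-4* went from 52.9 to 4.63 and 2.62 CPM in WT and from 41.3 to 4.96 and 5.33 CPM in ΔMSN1, an 11.6-fold fall (log2 −3.54 ± 0.23 SE, edgeR adjusted p = 2.2e-06). *bli-3* went from 1353 to 636 and 583 CPM in WT and from 1368 to 764 and 630 CPM in ΔMSN1, a 2.14-fold fall (log2 −1.10 ± 0.17 SE, edgeR adjusted p = 0.0073).

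*phr*, the photolyase that repairs ultraviolet damage with the energy of light, was at 15.9 CPM in the WT culture and 15.4 CPM in the ΔMSN1 culture at 0 h, and at 8.24 and 9.66 CPM in WT and 6.64 and 8.97 CPM in ΔMSN1 in the dark. The groups did not overlap, but the call was at the edge of the threshold (1.89-fold lower, log2 −0.92 ± 0.18 SE, edgeR adjusted p = 0.047). The call held in 7 of 16 alternative settings, among them the looser adjusted p < 0.1, which every called gene passes. *phr* was the single called gene of the 25 tested DNA repair genes (4%, against 0.486% of all genes), whose median log2 change was 0.09.

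The light-responsive transcription factor genes *sub-1* (log2 −0.02 ± 0.18 SE), *csp-1* (0.03 ± 0.19 SE) and *adv-1* (0.12 ± 0.18 SE) were each at an edgeR adjusted p of 1. Their direction changed with 1 or more of the alternative settings. A further regulator that did fall was *sah-1*, which encodes a transcription factor named for short aerial hyphae. It went from 84.1 to 57.6 and 40 CPM in WT and from 82.5 to 44.6 and 51 CPM in ΔMSN1 (1.79-fold, log2 −0.84 ± 0.16 SE, edgeR adjusted p = 0.047), and its call held in 6 of 16 alternatives.

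Genes of conidiation, the formation of asexual spores, were also represented. *con-8* went from 1817 to 1047 and 882 CPM in WT and from 2201 to 1085 and 1064 CPM in ΔMSN1 (2.02-fold lower, log2 −1.01 ± 0.16 SE, edgeR adjusted p = 0.0073). *con-10* went from 173 to 89.4 and 53.8 CPM in WT and from 108 to 62.3 and 64.3 CPM in ΔMSN1 (2.12-fold lower, log2 −1.09 ± 0.20 SE, edgeR adjusted p = 0.032), a call that held in 8 of 16 alternatives. *con-6* was at 10.1, 3.93 and 2.13 CPM in WT but at 3.42, 2.79 and 2.47 CPM in ΔMSN1, so its groups overlapped, and it missed the threshold (log2 −1.44 ± 0.31 SE, edgeR adjusted p = 0.092).

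Of the 10 conidiation genes, 8 were tested, 2 fell (25%, against 0.486% of all genes) and 0 rose (median log2 −0.56). Their summed level, a marker of conidia and aerial hyphae in the culture, was 4897 and 3782 CPM at 0 h and 1995 to 4385 CPM in the dark, with 1 member, *con-13*, at 0 in all 6 libraries. The hydrophobin gene *eas* and the developmental regulator *fl*, both typical of aerial growth, were not called (log2 −0.05 ± 0.23 SE and −0.13 ± 0.20 SE, edgeR adjusted p = 1). In bulk RNA a loss of cells of one type and a loss of RNA per cell cannot be told apart.

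**Figure D2:**
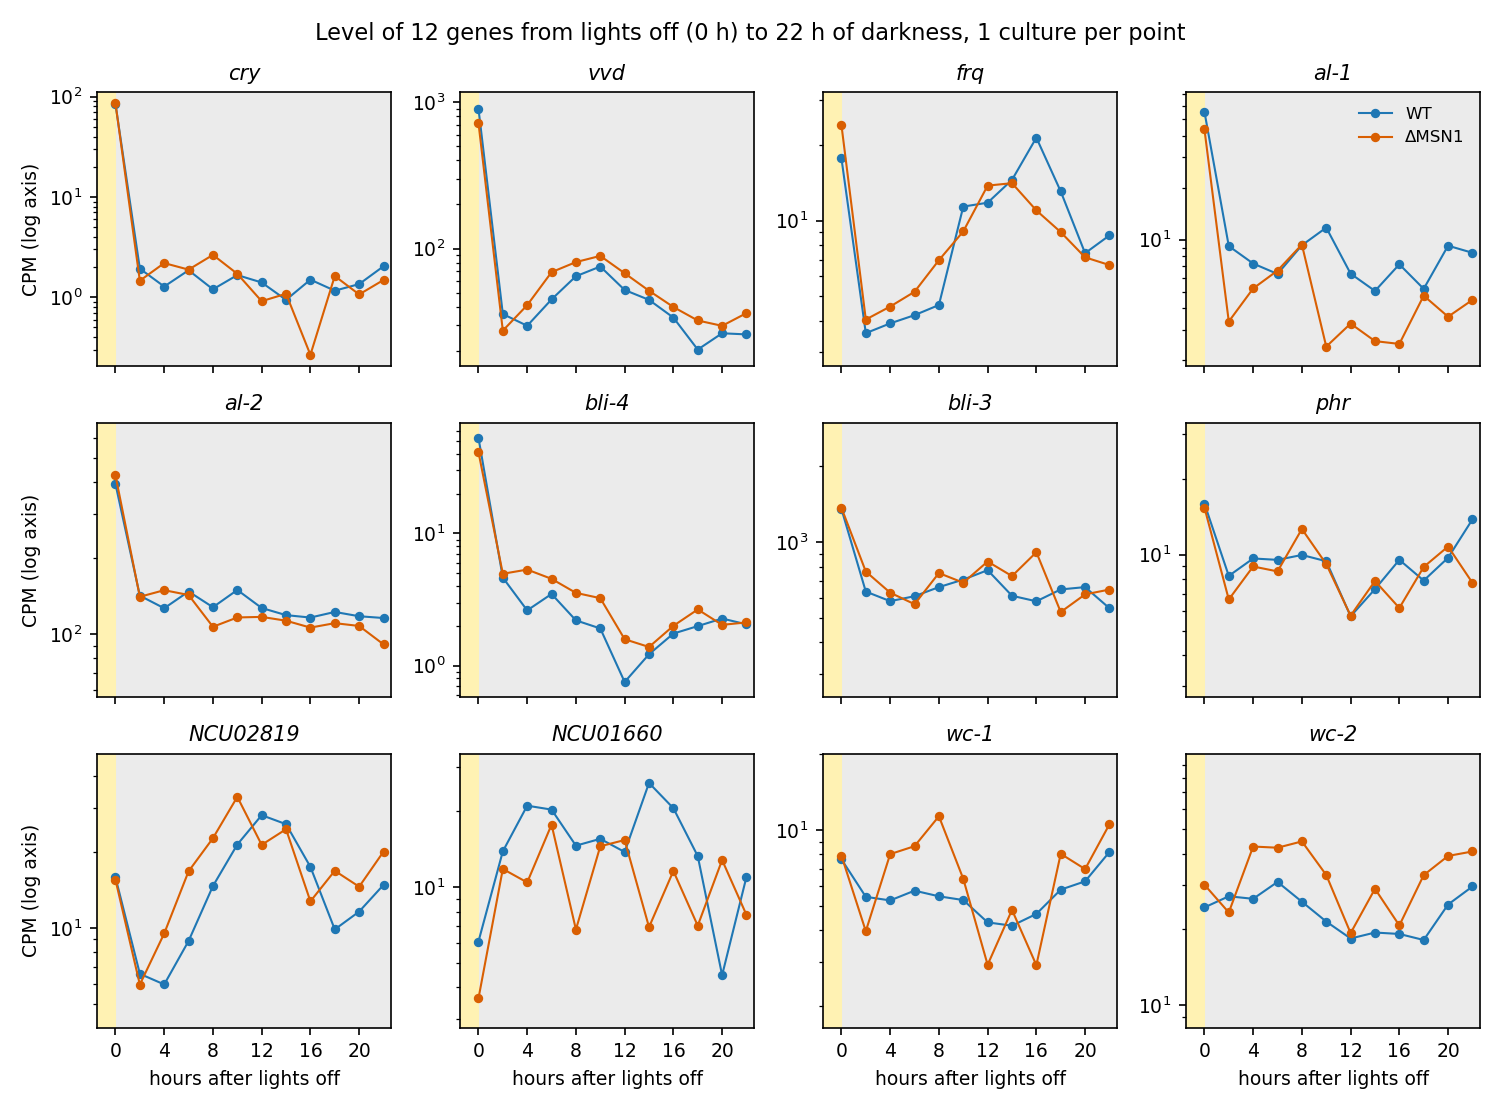
CPM (log axis) of 12 genes against hours after lights off, with WT in blue and ΔMSN1 in orange, 1 culture per point. The yellow band marks light and the grey field darkness. *cry* drops from above 84 CPM to about 1 to 2 CPM by 2 h and stays at or below 2.65 CPM. *frq* climbs again to 21.3 CPM at 16 h in WT. *wc-1* is lower at 2 h than at 0 h in both strains, but neither its change nor that of *wc-2* was called.

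Most of the genes that fell have no standard name. The reference table gave a symbol for 15 of the 35 and none for 20, and the falls of these 20 ran from 1.78-fold to 9.16-fold. *NCU07434* went from 28.7 to 3.54 and 3.13 CPM in WT and from 26.1 to 3.63 and 2.28 CPM in ΔMSN1 (9.16-fold lower, log2 −3.19 ± 0.20 SE, edgeR adjusted p = 2e-06). *NCU08291* went from 82.1 to 7.07 and 13.3 CPM in WT and from 77.8 to 9.15 and 15.3 CPM in ΔMSN1 (7.19-fold, log2 −2.85 ± 0.22 SE, edgeR adjusted p = 1e-05). In both strains the 4 h culture was above the 2 h culture for *NCU08291* and below it for *NCU07434*.

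Other members of the 12 largest falls were similar in both strains. *mig-3* was at 109 and 110 CPM at 0 h and at 11.9 to 16.3 CPM in the dark, *NCU17113* at 123 and 89.9 CPM against 11.2 to 17.5 CPM, and *NCU10063* at 42.8 and 50.8 CPM against 6.64 to 8.49 CPM. *NCU06915* was at 154 and 132 CPM against 20.4 to 30.6 CPM, and *NCU01926* at 13.9 and 12.4 CPM against 2.61 to 4.57 CPM. Their fitted falls lay between log2 −2.11 ± 0.24 SE (*NCU01926*, edgeR adjusted p = 0.00045) and −2.97 ± 0.16 SE (*mig-3*, edgeR adjusted p = 6.6e-07), and the 0 h and dark ranges did not overlap.

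Highly expressed genes were among the falls too. *NCU06420* went from 1143 to 349 and 324 CPM in WT and from 1172 to 424 and 401 CPM in ΔMSN1 (3.19-fold, log2 −1.67 ± 0.15 SE, edgeR adjusted p = 6.9e-05). *mig-9* went from 460 to 196 and 130 CPM in WT and from 563 to 206 and 200 CPM in ΔMSN1 (2.88-fold, log2 −1.53 ± 0.17 SE, edgeR adjusted p = 0.00045). *ecd-2* started higher in WT, at 233 CPM, than in ΔMSN1, at 150 CPM. It reached 73.4 and 66.5 CPM in WT and 40.1 and 37.2 CPM in ΔMSN1, a 3.69-fold fall (log2 −1.88 ± 0.15 SE, edgeR adjusted p = 2e-05).

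Together the 35 genes made up 8468 CPM of the WT library and 8617 CPM of the ΔMSN1 library at 0 h. In the dark their sum was 3231 and 2846 CPM in WT and 3350 and 3240 CPM in ΔMSN1. This sum restates the selection and is given for scale.

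Some of these genes lie side by side. By the order of genes in the reference assembly NC12, *al-2* is next to *NCU00584*, which was called as well (2.29-fold lower, log2 −1.20 ± 0.15 SE, edgeR adjusted p = 0.0013). *cry* follows *NCU00584* with only *NCU00583* between, a low gene that overlaps *cry* and was at 1 and 0.80 CPM at 0 h and at 0 in the 4 dark libraries. *vvd* and *NCU17113* are separated by *NCU03968* (log2 0.00 ± 0.34 SE) and *NCU03969*.

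Reads of overlapping genes may not be separated, since the sources used here do not state whether the counting used strand. Of the 35 genes, 6 overlap a neighbour: *cry*, *NCU17113*, *NCU02771*, *NCU00360*, *bli-3* and *NCU06915*. The partner of *NCU17113*, *NCU03969*, was at 3.53 and 3.80 CPM at 0 h and at 0 to 0.69 CPM in the dark, so it moved with it. The partners of the other 4, *NCU02772* (log2 −0.14 ± 0.20 SE), *NCU00361* (0.09 ± 0.18 SE), *NCU07266* (0.13 ± 0.22 SE) and *NCU06914* (0.18 ± 0.18 SE), did not pass the test, each with an edgeR adjusted p of 1.

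Against 0 h, 31 of the 35 falls were called at 2 h and 34 at 4 h (edgeR adjusted p < 0.05). Among all genes tested 0.458% and 0.777% were called lower at these times. The 35 genes were chosen on these same cultures. No further change from 2 h to 4 h was detected in the 35. Fitted separately, the median log2 change of the 35 genes was −1.59 at 2 h and −1.65 at 4 h against 0 h. The 35 genes were called with 2 h and 4 h pooled, so a gene that differed between these times was less likely to be among them. The comparison of 4 h with 2 h thus cannot show whether falls in general were complete by 2 h. It called 0 of the 35 genes with edgeR at an adjusted p under 0.05, against 0.291% of all genes tested. An unadjusted p under 0.05 (edgeR) was found in 3 of the 35, and in 692 of all 7209 genes tested. With size factors of DESeq2 in place of TMM the count of calls among the 35 was also 0. Their 4 h over 2 h differences ran from log2 −0.45 to 0.74, 19 below 0 and 16 above, with a median of −0.02 and standard errors of 0.16 to 0.46. The largest, *NCU08291*, was 0.74 ± 0.24 SE (edgeR adjusted p = 0.28). For *cry* the difference was −0.10 ± 0.46 SE, for *vvd* 0.08 ± 0.21 SE and for *frq* 0.09 ± 0.32 SE.

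**Figure D3:**
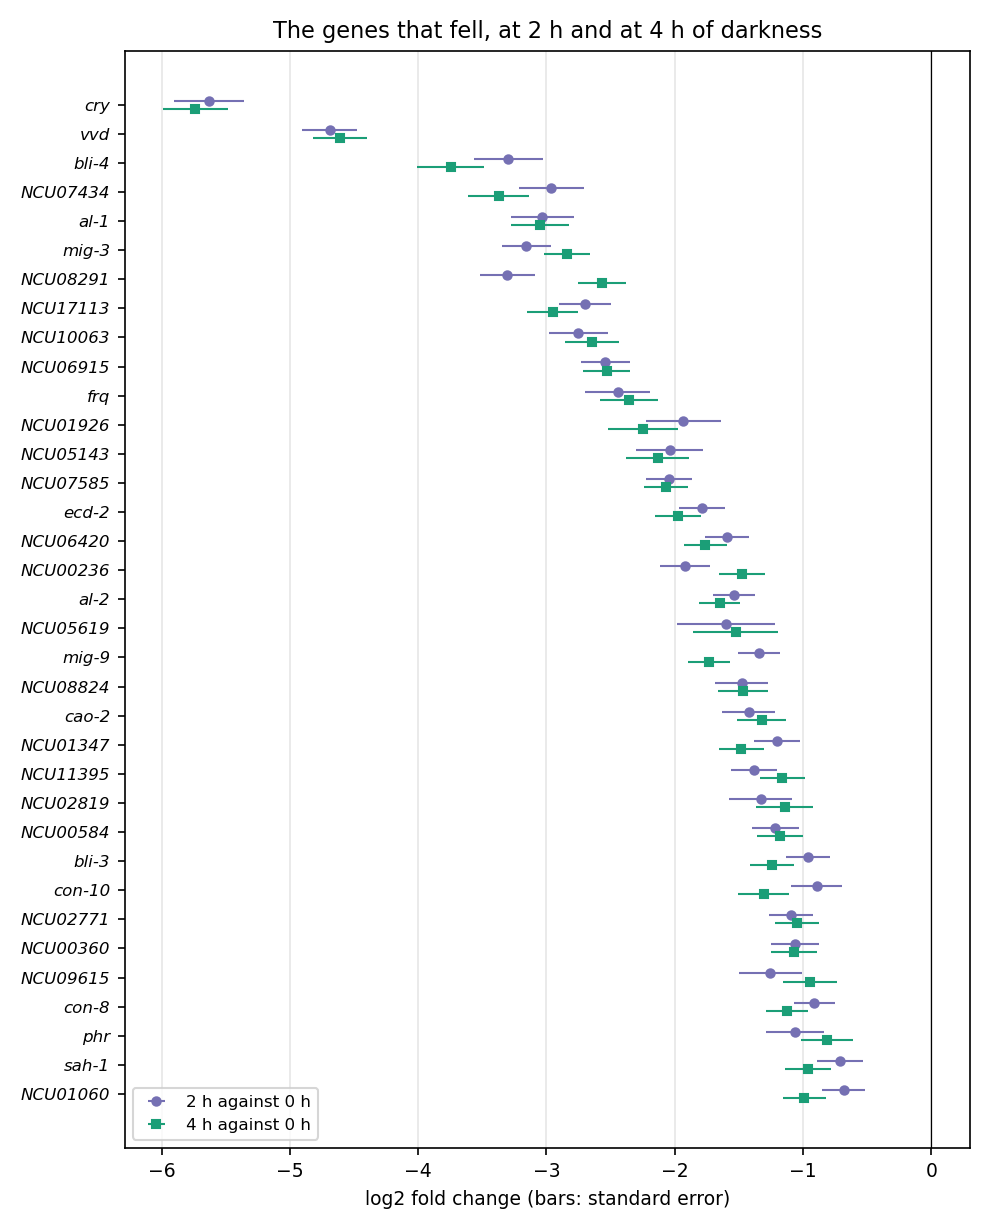
Log2 fold change at 2 h (circles) and at 4 h (squares) against 0 h for the 35 genes that fell, ordered by their pooled fall, with standard errors as bars. The points of one gene lie within 0.74 of each other, from *cry* at −5.63 and −5.74 to *NCU01060* at −0.68 and −0.99.

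The falls were set side by side in the strains. The fold from 0 h to the mean of 2 h and 4 h was 52.5 in WT and 46.8 in ΔMSN1 for *cry*, 27.6 and 21 for *vvd*, 4.72 and 5.56 for *frq* and 2.93 and 2.94 for *al-2*. A term for the difference between strains was called in 0 of the 35 genes (edgeR, smallest adjusted p = 1) and had an unadjusted p under 0.05 in 1 of them. Over all 7209 genes tested 1, or 0.0139%, was called, and 58 had an unadjusted p under 0.05 (edgeR). The differences ran from log2 −1.36 to 0.93 with a median of 0.01 and a median standard error of 0.40, so small differences between the strains in a single gene were not detectable with 1 culture at 0 h per strain.

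The widest gaps were in *NCU05619*, which fell 2.11-fold in WT and 5.20-fold in ΔMSN1 (log2 difference −1.36 ± 0.57 SE), and in *bli-4*, which fell 14.6-fold in WT and 8.03-fold in ΔMSN1 (0.93 ± 0.46 SE). Neither passed adjustment (edgeR adjusted p = 1).

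**Figure D4:**
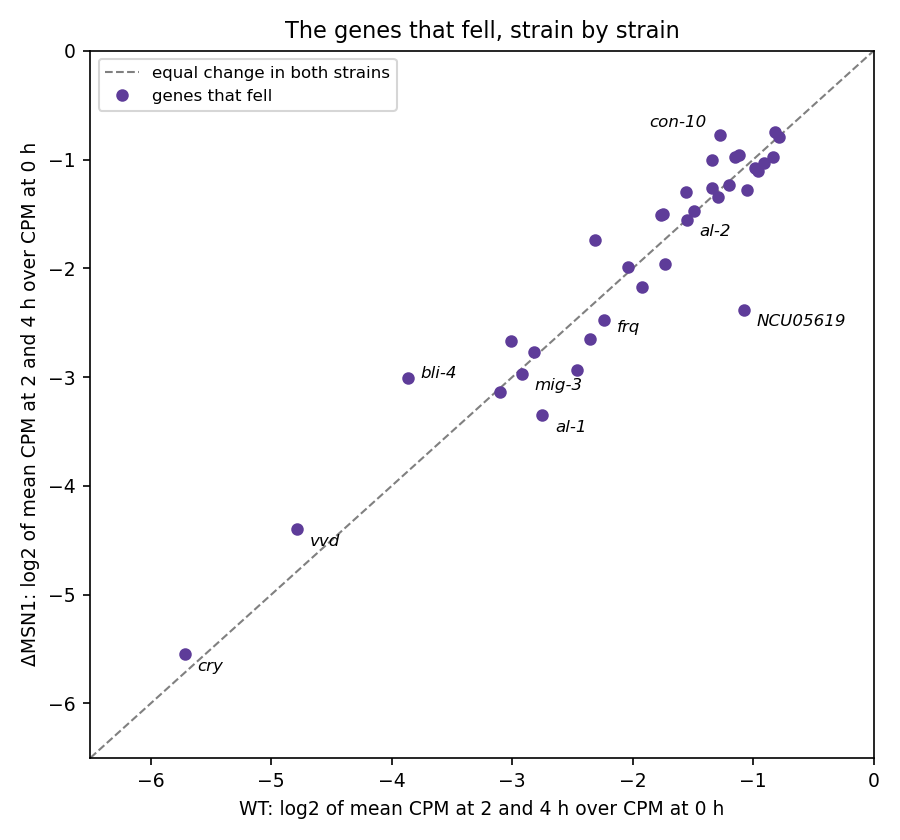
Log2 of the mean CPM at 2 and 4 h over the CPM at 0 h in WT (horizontal axis) and in ΔMSN1 (vertical axis) for the 35 genes that fell. The dashed line marks equal change, and *cry*, *frq* and *al-2* lie close to it while *bli-4* (−3.87 and −3.01) and *NCU05619* (−1.07 and −2.38) lie off it.

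Later in the darkness the genes parted. Over the 18 cultures of 6 to 22 h the highest level of 28 of the 35 genes stayed below both 0 h cultures. This was so for 0.652% of all tested genes. The 35 genes were chosen for high levels in these same 0 h cultures, so the count is partly set by that choice. *cry* was between 0.27 and 2.65 CPM with a median of 1.45 CPM, *al-2* between 91 and 149 CPM with a median of 117 CPM, and *bli-4* between 0.75 and 4.54 CPM with a median of 2.04 CPM. These levels were far under those of the light cultures throughout. *vvd* remained under 90 CPM but was not flat, reaching 75.4 CPM in the WT culture and 89.1 CPM in the ΔMSN1 culture of 10 h, and was back at 25.9 and 36.2 CPM at 22 h.

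In the other 7 at least 1 later culture passed the lower of the 0 h cultures, and in 6 of them it passed the 0 h level of its own strain. *NCU02819* and *NCU01060* did so in both strains, *frq* and *NCU05619* in WT only, and *con-10* and *NCU09615* in ΔMSN1 only. *NCU11395* did so in neither, with later maxima of 95.6 CPM in WT and 73.4 CPM in ΔMSN1. *frq* reached 21.3 CPM at 16 h in WT, above its 17.7 CPM at 0 h, and 14.1 CPM at 14 h in ΔMSN1, below its 23.9 CPM. *NCU02819*, listed by the study as a high mobility group protein, a class of DNA-binding proteins, was at 15.8 and 15.5 CPM at 0 h. It was at 6.56 and 5.96 CPM in WT and 5.95 and 9.49 CPM in ΔMSN1 after 2 and 4 h, and rose to 28 CPM at 12 h in WT and 33.1 CPM at 10 h in ΔMSN1.

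Against the same 0 h cultures, 6 to 22 h gave log2 −5.85 ± 0.13 SE for *cry*, −1.16 ± 0.38 SE for *frq* (edgeR adjusted p = 0.4) and 0.17 ± 0.35 SE for *NCU02819* (edgeR adjusted p = 0.95). Over all 7310 genes tested in that comparison 38 were lower and 2 higher, or 0.52% and 0.0274%. Both comparisons share the 0 h cultures and are not independent.

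Rises over the first hours were few. *NCU01660*, listed by the study without a function, was at 6.08 CPM in the WT culture and 3.62 CPM in the ΔMSN1 culture at 0 h, and at 13.9 and 21 CPM in WT and 11.8 and 10.4 CPM in ΔMSN1 in the dark. Both 0 h libraries lay below all 4 dark libraries, as in 4.22% of all tested genes, and the rise was 2.93-fold (log2 1.55 ± 0.26 SE, edgeR adjusted p = 0.014). It is the single gene that met the rule for named rises. The 11 next by p had log2 changes of 0.65 to 1.36 and edgeR adjusted p-values of 0.12 to 0.40, so none of them passed.

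The second call, *NCU00312*, was outside that rule and is named because it was called. It was listed at 0 in both 0 h cultures and in WT at 2 h, at 1.41 CPM in WT at 4 h and at 11.1 and 9.82 CPM in ΔMSN1. Most of its level was thus in ΔMSN1, and against a floor of 3 counts over the 2 libraries of 0 h the dark mean was at least 20.9-fold higher. Over 6 to 22 h, however, its median was 0.91 CPM and its highest level 10.6 CPM, in ΔMSN1 at 18 h. At 22 h it was at 0 in both strains. Both rises depended on the processing, with 0 to 6 genes called under the alternatives. Without ΔMSN1 at 2 h 0 genes were called as rises, without ΔMSN1 at 4 h 6, without WT at 2 h 4, without ΔMSN1 at 0 h 1, and without WT at 0 h 2. None of those called without either 0 h culture was *NCU01660* or *NCU00312*.

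Single times gave further calls. At 2 h, 33 genes were lower and 15 higher than at 0 h (0.458% and 0.208%), and at 4 h 56 were lower and 7 higher (0.777% and 0.0971%). Between 2 h and 4 h, 18 genes were lower and 3 higher at 4 h (0.25% and 0.0416%). The genes given next were chosen after their values were seen.

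Within 0 to 4 h a rise at 2 h was seen in *NCU05126*. It was at 13, 50.5 and 21.5 CPM in WT and 81.7, 269 and 85 CPM in ΔMSN1 at 0, 2 and 4 h. Of these times 2 h was the highest in both strains (2 h against 0 h log2 1.82 ± 0.21 SE, edgeR adjusted p = 8.4e-05, and 4 h against 2 h −1.54 ± 0.21 SE, edgeR adjusted p = 0.0035). Over 6 to 22 h, however, its median was 161 CPM and its highest level 729 CPM, in WT at 20 h. *NCU05712* was also highest at 2 h among these times, with 21.7, 65.5 and 18.1 CPM in WT and 53.8, 116 and 59.3 CPM in ΔMSN1 (2 h against 0 h log2 1.34 ± 0.19 SE, edgeR adjusted p = 0.00086). Its later maximum was 185.5 CPM, in ΔMSN1 at 6 h.

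Other rises at 2 h were largely those of 1 culture. *NCU01057* and *NCU09800*, listed by the study as taurine dioxygenases, enzymes that release sulfite from taurine, were at 106 and 27.8 CPM in WT at 2 h. They were at 15.6 and 4.07 CPM in WT at 0 h and at 12 and 4.86 CPM at 4 h. In ΔMSN1 *NCU01057* was at 7.63, 6.88 and 3.84 CPM and *NCU09800* at 4.31, 6.45 and 3.24 CPM at 0, 2 and 4 h. Their calls at 2 h (edgeR adjusted p = 0.023 and 0.0043) thus rested on the WT culture. *NCU10512*, a putative membrane protein, was at 2.83, 23.2 and 5.67 CPM in WT and at 2.35, 4.65 and 3.22 CPM in ΔMSN1. Higher levels came later, in WT at 18 h, with 352 CPM for *NCU01057*, 91 CPM for *NCU09800* and 41 CPM for *NCU10512*.

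A slower fall was seen in *app*, which encodes the abundant perithecial protein. It was at 384, 316 and 96.5 CPM in WT and at 86.4, 32.5 and 25.2 CPM in ΔMSN1, so the 2 h culture was near 0 h in WT and well below it in ΔMSN1 (4 h against 0 h log2 −1.98 ± 0.23 SE, edgeR adjusted p = 0.00011). *NCU08052*, listed as an aquaporin, a water channel, was at 1584, 1270 and 496 CPM in WT and at 1950, 1043 and 1009 CPM in ΔMSN1 (4 h against 0 h log2 −1.37 ± 0.21 SE, edgeR adjusted p = 0.0019). Its fall was slower in the WT cultures only, and in ΔMSN1 it was there at 2 h. The change from 2 h to 4 h was not called (log2 −0.77 ± 0.21 SE, edgeR adjusted p = 0.16). *NCU16443* was at 34.5, 31.9 and 12.9 CPM in WT and at 46.9, 72.8 and 16.7 CPM in ΔMSN1, a fall after 2 h in both strains (4 h against 2 h log2 −1.82 ± 0.24 SE, edgeR adjusted p = 0.0035).

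Rises at 4 h were smaller. *gh18-9*, of a glycoside hydrolase family that includes chitinases, was at 16.8, 26.9 and 35.8 CPM in WT and at 22.5, 32.7 and 37.6 CPM in ΔMSN1 (4 h against 0 h log2 0.86 ± 0.19 SE, edgeR adjusted p = 0.048, and 0.081 with the size factors of DESeq2). *NCU06063* was at 16, 24.8 and 34 CPM in WT and at 11.6, 15 and 24.2 CPM in ΔMSN1 (log2 1.01 ± 0.19 SE, edgeR adjusted p = 0.011). Both stepped up from 0 h to 2 h to 4 h in each strain.

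Further gene groups, some of which share members with the lists above, are given beside the share of all tested genes called lower, 0.486%. Of the 1152 tested members of the study's circadian set, 6 fell (0.521%, near the 0.486% of all genes) and 0 rose, with a median log2 change of 0.01. The 6 were *frq*, *NCU06420*, *NCU11395*, *NCU00584*, *NCU02819* and *NCU01060*. Of 445 tested genes of the third-harmonic set, the study's class of genes with its shortest period, 0 fell and 1, *NCU01660*, rose, with a median of 0.09 and 119 (26.7%) fitted below 0, against 44.4% of all genes tested.

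The study's binding flags cover its rhythmic genes only, so *vvd*, *cry*, *al-1* and *al-2* carry none. Of 97 tested genes flagged for the white collar complex, 5 fell (5.15%) and 0 rose, *frq*, *NCU11395*, *NCU00584*, *NCU02819* and *NCU01060*, with a median of −0.05. Of 132 flagged for SUB1, 4 fell (3.03%) and 1 rose (median 0.04). These 4, *frq*, *NCU00584*, *NCU02819* and *NCU01060*, are among the 5 flagged for the white collar complex, so the counts are not independent. Of 209 flagged for the repressor CSP1, 1 fell (0.478%), again *frq*, and 1 rose (median 0.03). The rise was *NCU01660* in both the SUB1 and the CSP1 list. Among all tested genes 0.486% fell, so the share of the CSP1 genes was near that of all genes. *NCU11395*, listed as an S-(hydroxymethyl)glutathione dehydrogenase, which clears formaldehyde, went from 136 to 60 and 58.5 CPM in WT and from 93.5 to 30.8 and 48.5 CPM in ΔMSN1 (2.4-fold lower, log2 −1.26 ± 0.16 SE, edgeR adjusted p = 0.0012).

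The 7 tested genes named as clock-controlled gave 0 calls (median −0.05), among them *gpd-1*, glyceraldehyde-3-phosphate dehydrogenase (log2 −0.16 ± 0.19 SE), and *ccg-8* (−0.30 ± 0.19 SE). Heat shock genes (10 tested, median 0.08, *hsp98* −0.32 ± 0.15 SE and *hsp30* −0.46 ± 0.25 SE), the respiratory chain (29, −0.03, *nuo78* −0.18 ± 0.16 SE and *nuo11.5* 0.22 ± 0.18 SE) and amino acid synthesis (55, −0.02, *arg-2* −0.42 ± 0.15 SE and *ilv-5* −0.38 ± 0.15 SE) gave none either. Sterol synthesis (3, −0.09, *erg-1* and *erg-3* both −0.09), histones (6, 0.06, *hH2B* 0.14 ± 0.16 SE and *hH4-1* 0.12 ± 0.17 SE), oxidative stress (6, −0.14, *cat-2* −0.59 ± 0.20 SE and *cat-1* −0.23 ± 0.17 SE) and plant cell wall degradation (52, 0.10, *gh28-2* −0.59 ± 0.17 SE) had 0 calls in edgeR. Of all tested genes 0.486% were called lower, so groups this small would hold few or no calls. Their zeros are no result about the groups. Among all genes, 254 had an unadjusted p under 0.05. The 5 genes of sexual development were all below the filter, with summed levels of 1.3 to 2.61 CPM.

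The threshold was crossed with no gap. The last genes inside it, *sah-1* and *phr*, had an edgeR adjusted p of 0.047, and the first outside had 0.051.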

How the data were processed

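The authors deposited 1 table per strain of estimated counts per gene, and the submitters' processing notes name kallisto 0.43.1. The build and the scaling of the values are not given in the sources used here; 11.5 to 15.4% of values per library are whole, so CPM may not stand for reads, and precision rests on totals of 2415479 to 9829687 for the 24 libraries. The estimated counts were rounded and tested with edgeR 4.0.16 (R 4.3.3): TMM, strain as block, two-sided quasi-likelihood F test and Benjamini-Hochberg adjustment over all genes whose mean reached 2 CPM. SE is the size of the log2 change divided by the square root of F. Alternatives used DESeq2 1.42.0, limma 3.58.1, other scalings, filters and thresholds, values times gene length, all 24 libraries, and leaving out each library. The tests were checked on simulated data. Tables and plots were made with Python 3.11.15, pandas 2.3.3, numpy 2.4.6 and matplotlib 3.10.9. Every column was mapped to a sample by its name.

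Samples were grouped by the labels' time and strain. The comparison and the gene lists were chosen with earlier results of these data known. Named genes were all members of the clock and photoreceptor, carotenoid and light-responsive lists, up to 12 falls and 12 rises past adjusted p < 0.05 with at least 5 CPM in the higher group and 0 h outside the dark values in both strains (rises filled up by p), and the smallest p of other lists. The study's circadian, third-harmonic and binding lists were chosen by its authors on another WT series. Symbols come from RefSeq (NC12), which lists 9729 of the 9730 genes and gives no products, so lists of ribosomal, proteasome, glycolysis and transporter genes found no members.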

Additional observations from a re-analysis of the deposited data

Results flagged for a closer look

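The level of *mig-9* was 130 CPM in WT at 4 h, apart from the other 3 dark libraries at 196 to 206 CPM. *NCU09145*, one of the rises that did not pass the threshold, was at 13.8 CPM in ΔMSN1 at 2 h, apart from 8.25 to 8.87 CPM in the other 3. Of 60 genes examined in this way, chance alone flags about 1 in 20.

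The change differed between the strains in 1 gene, *NCU02598* (edgeR adjusted p = 0.0155, and 0.054 with the size factors of DESeq2). It was at 37.9, 29.6 and 42.8 CPM in WT and at 0, 31.5 and 27.9 CPM in ΔMSN1 at 0, 2 and 4 h, so the call rests on the single library of ΔMSN1 at 0 h, against whose floor of 3 counts the later ΔMSN1 mean is at least 34.2-fold higher. For *ylo-1* both dark cultures were above 0 h in WT (137 CPM at 0 h, 143 and 138 CPM in the dark) and both below it in ΔMSN1 (160 CPM, then 146 and 143 CPM), with a difference of −0.166 on the log2 scale (unadjusted p = 0.66 in edgeR).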

How the results depend on the processing

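The direction of all 35 falls held in every alternative in which the gene was tested, and 482 of 557 gene-by-setting values stayed past the threshold. The alternatives include the looser adjusted p < 0.1, which every called gene passes by definition. For 15 genes every alternative kept the call, among them *cry*, *vvd*, *frq*, *al-1*, *al-2* and *bli-4*. The calls of *sah-1*, *phr*, *NCU01060* and *con-10* held in 6, 7, 7 and 8 of 16. Leaving out 1 library at a time gave 17 to 37 lower and 0 to 6 higher genes. Of these, 17 and 19 without the WT or the ΔMSN1 culture of 0 h were among the 35. In the other alternatives 27 to 36 genes (41 at adjusted p < 0.1) were lower. Of the 2 rises, 1 was called at a minimum of 5 CPM, in DESeq2's Wald test, in limma-voom, with values times gene length and with the gene length trend removed, and 0 with no strain block or all 24 libraries in the fit.

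At adjusted p < 0.1 there were 28 higher genes at 2 h, 12 at 4 h, 41 lower and 6 higher at 4 h against 2 h, 1 lower and 2 higher in the strain difference and 7 higher at 6 to 22 h. With the size factors of DESeq2 0 genes were higher at 4 h against 2 h and 0 in the strain difference. Leaving out a 0 h library gave 24 to 28 lower and 0 to 1 higher genes at 6 to 22 h.

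Values near 0 changed sign. With the gene length trend removed *nop-1* came to −0.0155 and *csp-1* to −0.0296, and with values times gene length *frh* came to 0.00231. Leaving out 1 library at a time gave −0.0121 to 0.233 for *adv-1*, −0.219 to 0.071 for *al-3*, −0.0700 to 0.177 for *wc-2*, −0.14 to 0.123 for *csp-1*, −0.112 to 0.0348 for *sub-1* and −0.152 to 0.174 for *frh*. The cause was not tested. The strain block of the fit sets each strain's 0 h culture against its own dark cultures, and without it 27 genes were lower. The labels give no replicate numbers to pair by. Low genes and the single culture per strain at 0 h limit the precision.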
